A study of Homo sapiens with 2 samples.

Results

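The genes described here encode the ADAM, ADAMTS and MMP metalloproteases and the TIMP inhibitors, 66 protein-coding genes whose symbols consist of ADAM, ADAMTS, MMP or TIMP, a number and at most 1 letter. They comprised 20 ADAM, 19 ADAMTS, 23 MMP and 4 TIMP genes, out of 18518 genes listed in either deposited table. RNA was sequenced from 2 libraries of H1, a widely used line of human embryonic stem cells. One library came from H1 cells labelled MEIS1-/-, called MEIS1 deleted below, and the other from wild-type H1 cells. Both cultures were grown in a custom mTeSR1 medium and steered towards blood, first by activin A at 40 ng/ml with BMP4 at 50 ng/ml (2 days), next by VEGF at 40 ng/ml with bFGF at 50 ng/ml (stated as 2 days). Both are labelled as day 3. The labels did not say which part of MEIS1 was deleted, or whether the deleted cells were 1 clone.

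The family was singled out because ADAMTS genes had lower counts as a group in the MEIS1 deleted library, so the differences between the libraries given here were known when it was chosen, and they are a description. With 1 library per genotype there was no replicate check and no test between genotypes. Every ratio is that of the MEIS1 deleted library over the wild-type library, from counts scaled for depth, with a 95% interval that covers counting error only. A gene is called lower or higher where this interval lay below or above 1. Because whole cultures were sequenced, fewer cells of a type and less RNA per cell cannot be told apart.

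Metalloproteases of these families hold a zinc ion in their active site and cut proteins outside cells or at the cell surface. ADAM proteins sit in the membrane and release the outer parts of other membrane proteins, among them Notch receptors, growth factor precursors and cadherins. ADAMTS proteins are secreted, bind the matrix and cut proteoglycans such as versican and aggrecan, procollagens and a few further substrates. MMPs degrade collagens, gelatin and other matrix proteins, some from the membrane and others after secretion, and TIMPs block the active sites of MMPs and of some ADAM and ADAMTS enzymes. In the embryo these enzymes remodel the matrix through which mesoderm cells migrate and in which vessels form.

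The libraries held 5296397 counts in MEIS1 deleted cells and 5202847 in wild type after rounding, with a median per listed gene of 86 counts in MEIS1 deleted cells and 89 in wild type. MEIS1 itself had 68 counts in the library labelled deleted and 89 in wild type, a ratio of 0.759 (0.543 to 1.05), so that the deletion could not be checked against its level. Cell type was read from marker lists, which were chosen with earlier results of these data known. KDR, the VEGF receptor of haemato-endothelial progenitors, was at 160.44 FPKM in MEIS1 deleted cells and 141.46 FPKM in wild type. Of 10 haemato-endothelial marker genes, 8 were higher and 2 lower, beside 15.4% and 14.7% over all genes with enough counts to compare. The lower ones were ETV2, with 14 counts in MEIS1 deleted cells and 72 in wild type, and SOX17, with 285 and 461. The summed level of the 10 genes, of which KDR was the largest part, was 327.50 FPKM in MEIS1 deleted cells against 252.12 FPKM in wild type. Of 12 mature blood markers only 3 reached 10 counts, and HBG1, HBG2, HBZ and MPO were at 0 or not listed in both libraries.

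Of the 66 genes, 43 reached 10 counts in 1 library or more and were compared, 13 were listed with fewer counts in both, and 10 were listed in neither. The genes in neither table were ADAM2, ADAM7, ADAM30, MMP3, MMP7, MMP8, MMP20, MMP21, MMP26 and MMP27. At this depth a count of 0 allows up to 3 counts per library. The 13 genes with few counts were ADAM11, ADAM18, ADAM20, ADAM29, ADAM32, ADAMTS8, ADAMTS14, ADAMTS16, ADAMTS20, MMP10, MMP12, MMP13 and TIMP4, and the highest of their counts was 9, for ADAMTS20 in the MEIS1 deleted library.

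Per length, a few genes made up most of the transcripts. MMP2 (gelatinase A) and MMP14 (MT1-MMP, which activates the MMP2 precursor at the membrane) were the most abundant members, at 171.70 and 165.92 FPKM in MEIS1 deleted cells and 159.96 and 206.24 FPKM in wild type. Together they held 84.8% of all MMP FPKM in MEIS1 deleted cells and 83.1% in wild type. TIMP1, a broad inhibitor of MMPs, came next with 93.66 FPKM in MEIS1 deleted cells and 77.77 FPKM in wild type. ADAM10, the main sheddase of Notch receptors, stood at 70.38 FPKM in MEIS1 deleted cells and 64.83 FPKM in wild type. ADAMTS9, a protease of versican, led the ADAMTS genes with 31.62 FPKM in MEIS1 deleted cells and 29.39 FPKM in wild type. At least 10 FPKM was reached by 13 members in MEIS1 deleted cells and 14 in wild type, and at least 1 FPKM by 34 members in MEIS1 deleted cells and 37 in wild type.

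**Figure D1:**
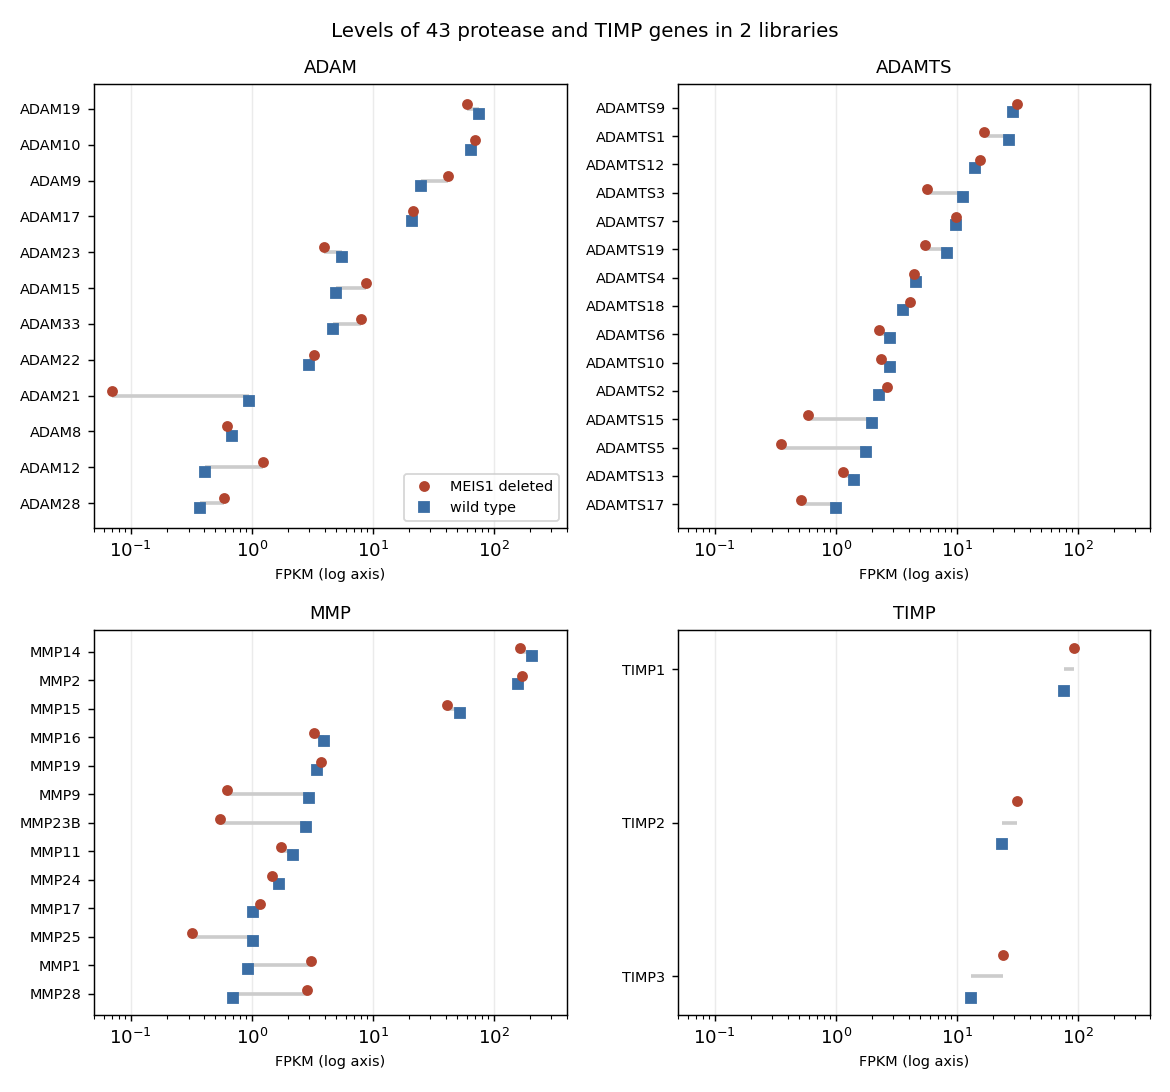
FPKM on a log axis for the 43 compared genes by family, with a circle for the MEIS1 deleted library and a square for the wild-type library with a grey line between their values. MMP2 and MMP14 lie farthest right in both libraries, ADAMTS5 lies at 0.35 FPKM in MEIS1 deleted cells against 1.77 FPKM in wild type, and the circles of TIMP1, TIMP2 and TIMP3 lie right of their squares.

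RefSeq promoter windows of 300 bases, 250 before and 50 after the start of the gene, were matched for 39 of the 66 genes. By median, compared members had more CG pairs in their windows than members with few or no counts, and the ranges overlapped. The 26 windows of compared members held a median of 29.5 CG pairs (range 1 to 47), the 6 of members with few counts a median of 8 (0 to 42), and the 7 of members in neither library a median of 3 (0 to 18). The same order held over all protein-coding genes, with medians of 26, 10 and 5 CG pairs in 10849, 2108 and 2886 windows, so the members followed the order seen over all genes. Single members departed from it: MMP14, among the most abundant, had 10 CG pairs, ADAMTS13 had 7 and ADAMTS6 had 9, while ADAM30 and MMP21, listed in neither library, had 18 and 10. The letters TATAAA, searched on both strands as the TATA box, occurred in 2 of the 26 windows of compared members and in 5 of the 7 of members in neither library. Over all protein-coding genes it occurred in 5.67% of windows of compared genes and 21.6% of those of genes in neither library, and in 12% of all 27305 windows. A MEIS core, TGACAG on either strand, occurred in 5 of the 39 windows (12.8%), in 15.9% of all windows and in 13.9% of those of listed genes. An AP-1 site, TGANTCA, was found in 4 member windows (10.3%), beside 7.76% of all windows and 5.31% of those of listed genes. The GC box GGGCGG was found in 26 (66.7%), beside 44.6% of all windows and 64.1% of those of listed genes. These are letter matches, and they do not show binding.

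**Figure D2:**
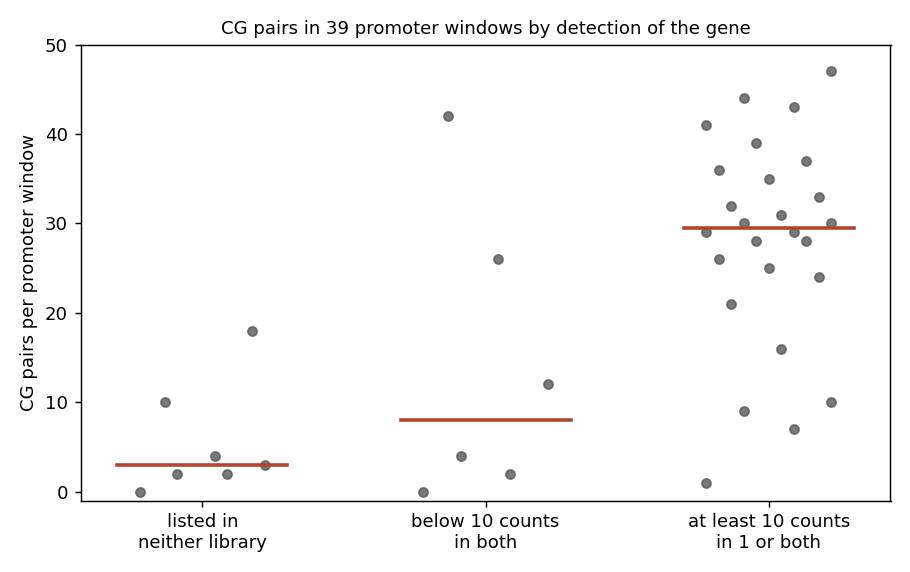
Number of CG pairs in the 300-base promoter windows of 39 genes, grouped by whether the gene was listed in neither library (7 genes), had fewer than 10 counts in both (6 genes) or had at least 10 counts in 1 or both (26 genes). Points are genes and lines are medians, at 3, 8 and 29.5 CG pairs.

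The windows of 5 members that differ in count, direction and CG pairs are printed here. They are from the RefSeq assembly GRCh38.p14, run 5′ to 3′ along the gene, and have in capitals the matches, on either strand, to the letters given above for the GC box, the TATA box, the AP-1 site and the MEIS core. ADAMTS3 and TIMP3 are a lower and a higher gene of good depth, ADAM12 and ADAM21 a higher and a lower gene of few counts, and MMP10 a gene near the limit of detection.
ADAMTS3 promoter, chr4:72569172-72569471, - strand: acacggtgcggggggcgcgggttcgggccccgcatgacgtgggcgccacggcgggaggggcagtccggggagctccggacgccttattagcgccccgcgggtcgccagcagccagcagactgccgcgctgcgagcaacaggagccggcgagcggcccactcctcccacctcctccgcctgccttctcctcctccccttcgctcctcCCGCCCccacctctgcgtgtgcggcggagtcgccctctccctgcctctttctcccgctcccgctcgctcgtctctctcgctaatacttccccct
TIMP3 promoter, chr22:32801455-32801754, + strand: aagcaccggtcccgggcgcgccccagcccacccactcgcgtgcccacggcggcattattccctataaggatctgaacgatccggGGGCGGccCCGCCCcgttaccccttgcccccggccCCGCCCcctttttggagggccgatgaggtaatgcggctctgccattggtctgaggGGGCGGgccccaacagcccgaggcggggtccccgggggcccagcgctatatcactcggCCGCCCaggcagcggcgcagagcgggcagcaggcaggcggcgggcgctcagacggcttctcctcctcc
ADAM12 promoter, chr10:126388428-126388727, - strand: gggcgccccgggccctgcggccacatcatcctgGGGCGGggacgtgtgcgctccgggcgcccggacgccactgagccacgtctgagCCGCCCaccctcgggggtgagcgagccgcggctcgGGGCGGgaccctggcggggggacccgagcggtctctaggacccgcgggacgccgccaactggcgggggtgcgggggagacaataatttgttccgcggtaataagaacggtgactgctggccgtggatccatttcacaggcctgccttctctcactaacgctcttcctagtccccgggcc
ADAM21 promoter, chr14:70451924-70452223, + strand: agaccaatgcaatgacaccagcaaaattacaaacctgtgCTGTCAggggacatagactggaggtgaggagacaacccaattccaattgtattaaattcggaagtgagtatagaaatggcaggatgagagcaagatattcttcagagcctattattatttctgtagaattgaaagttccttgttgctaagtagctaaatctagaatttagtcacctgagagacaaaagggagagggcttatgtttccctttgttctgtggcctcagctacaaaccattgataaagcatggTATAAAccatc
MMP10 promoter, chr11:102780579-102780878, - strand: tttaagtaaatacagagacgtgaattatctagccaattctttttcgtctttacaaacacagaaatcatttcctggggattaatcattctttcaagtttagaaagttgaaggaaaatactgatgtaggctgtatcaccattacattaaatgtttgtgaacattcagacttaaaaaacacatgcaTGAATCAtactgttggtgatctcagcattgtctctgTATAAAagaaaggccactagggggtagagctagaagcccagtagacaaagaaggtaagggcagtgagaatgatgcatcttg
The windows of ADAMTS3, TIMP3 and ADAM12 held 35, 31 and 33 CG pairs and 1, 5 and 3 GC boxes. ADAM21 had 1 CG pair, 1 MEIS core on the reverse strand that begins 211 bases before the start, and a TATAAA that begins at base 40 after it. The window of MMP10 had 2 CG pairs, an AP-1 match that begins 67 bases before the start and a TATAAA that begins 31 bases before it. Among the 8 lower, 5 higher and 13 other compared members with a window, the MEIS core occurred in 1, 0 and 2 windows.

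Over the 43 compared members, 13 were lower in MEIS1 deleted cells, 11 were higher and 19 had an interval that included 1. Over all 14381 genes compared, the interval lay below 1 for 14.7% and above 1 for 15.4%. The members' median log2 ratio was -0.07, beside 0.0032 over all genes compared. At least 2-fold lower, with the interval below 1, were 6 of the 43 members, beside 2.95% of all genes compared. At least 2-fold higher, with the interval above 1, were 3 of the 43 members, beside 2.90% of all genes compared. With a minimum of 50 counts these tallies were 2 and 0, and 8 members in place of 13 were lower. ADAM21, MMP9, MMP23B and MMP25 reached the minimum of 10 counts only in wild type, and ADAM28 and MMP28 only in MEIS1 deleted cells. These genes could therefore be compared only through the library in which they were high. These counts, and those by family that follow, come from the comparison by which the genes were chosen, and no difference between families was tested. Of 15 compared ADAMTS genes 6 were lower and 0 higher, of 13 MMP genes 5 were lower and 3 higher, of 12 ADAM genes 2 were lower and 5 higher, and all 3 compared TIMP genes were higher. Median log2 ratios were -0.29 for ADAMTS, -0.26 for MMP, 0.08 for ADAM and 0.42 for TIMP genes.

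**Figure D3:**
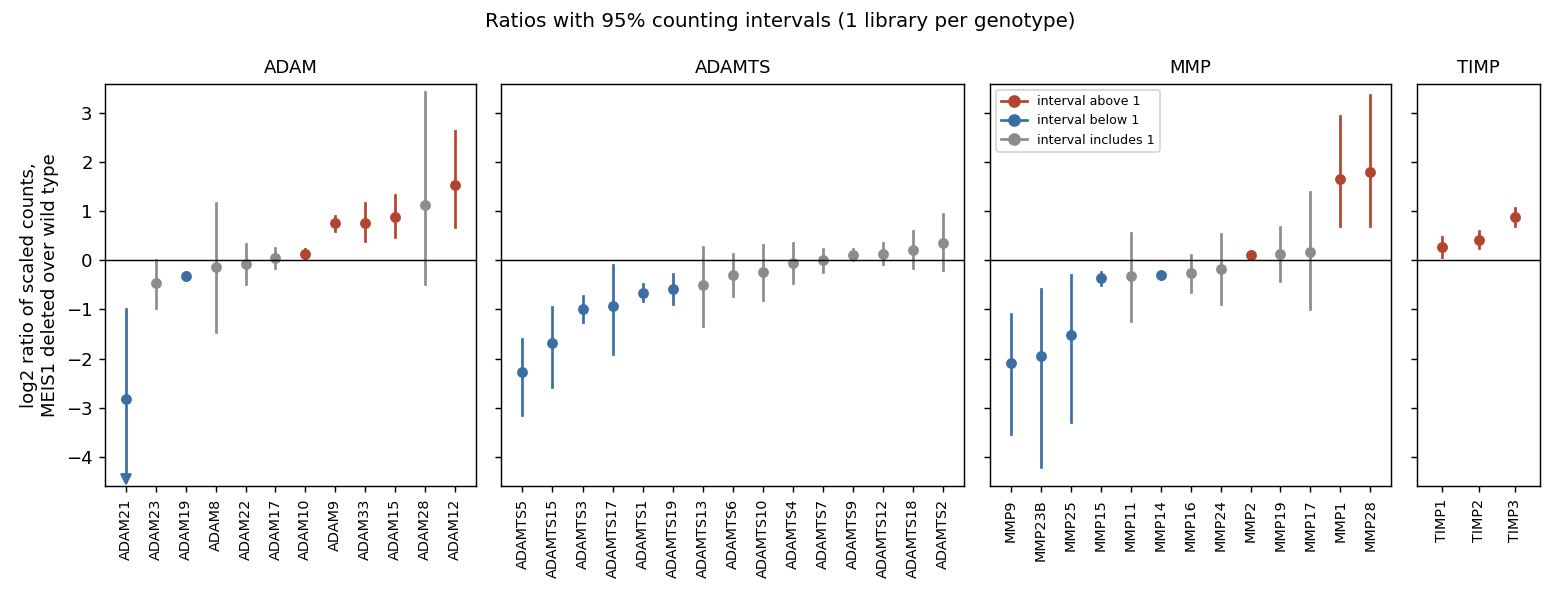
Log2 ratio of scaled counts, MEIS1 deleted over wild type, for the 43 compared genes by family, with points for the ratio and lines for the 95% counting interval. Colours mark intervals above 1, below 1 or including 1, and the arrow marks an interval that runs on below the axis; no ADAMTS gene has an interval above 1 and all 3 TIMP genes do.

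Among ADAMTS genes, 6 lower members were spread over the versican and aggrecan enzymes (3), the procollagen enzymes (1) and the remaining members (2), and 9 had intervals that included 1. ADAMTS5 (NCBI gene 11096, chromosome 21), a main aggrecanase, had 18 counts in MEIS1 deleted cells against 90 in wild type, a ratio of 0.207 (0.112 to 0.331). ADAMTS15 (NCBI gene 170689, chromosome 11), a versican-cutting enzyme, had 18 counts in MEIS1 deleted cells and 59 in wild type, a ratio of 0.313 (0.168 to 0.519). These were the 2 ADAMTS genes at least 2-fold lower, and both were rare, at 0.35 and 0.59 FPKM in MEIS1 deleted cells and 1.77 and 1.98 FPKM in wild type. ADAMTS1, which cuts versican and aggrecan and is the gene next to ADAMTS5 on chromosome 21, had 421 counts in MEIS1 deleted cells and 657 in wild type, a ratio of 0.635 (0.560 to 0.718). Since ADAMTS1 was far more abundant, at 16.92 FPKM in MEIS1 deleted cells and 26.89 FPKM in wild type, it accounted for the larger difference in level within this neighbouring pair. ADAMTS15 is likewise next to ADAMTS8 on chromosome 11, but ADAMTS8 had only 5 counts in MEIS1 deleted cells and 7 in wild type.

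For the other compared enzymes of the versican and aggrecan group the interval included 1. ADAMTS9 had 1239 counts in MEIS1 deleted cells and 1131 in wild type, a ratio of 1.08 with an interval that just included 1 (0.999 to 1.18). ADAMTS4, the other main aggrecanase, had 103.64 counts in MEIS1 deleted cells and 107.15 in wild type, a ratio of 0.962 (0.727 to 1.27). Of the 7 genes of the group, 5 were compared and 3 were lower, beside 14.7% lower over all genes compared. The group's summed level was 54.44 FPKM in MEIS1 deleted cells against 65.24 FPKM in wild type.

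ADAMTS3 had the lowest ratio among ADAMTS genes above 5 FPKM in both libraries. The gene encodes a procollagen N-proteinase that also activates VEGFC, the growth factor of lymphatic vessels, with CCBE1 as cofactor. ADAMTS3 (NCBI gene 9508, chromosome 4) had 177 counts in MEIS1 deleted cells and 348 in wild type, at 5.68 FPKM in MEIS1 deleted cells and 11.38 FPKM in wild type, a ratio of 0.505 (0.418 to 0.605). Its relative ADAMTS2, also a procollagen N-proteinase, had 63.78 counts in MEIS1 deleted cells and 48.82 in wild type, a ratio of 1.29 (0.877 to 1.92), and ADAMTS14 was below the minimum with 4 counts in MEIS1 deleted cells and 5 in wild type. CCBE1 had 151.13 counts in MEIS1 deleted cells and 137.92 in wild type (ratio 1.08, 0.854 to 1.37). VEGFC had 13 counts in MEIS1 deleted cells and 1 in wild type (ratio 6.93, 1.93 to 547). It could therefore be compared only through the library in which it was high. CCBE1 and VEGFC were both named after their values were seen.

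Of the remaining ADAMTS genes, 2 were lower. ADAMTS19 had 149 counts in MEIS1 deleted cells and 220 in wild type, a ratio of 0.672 (0.541 to 0.829). ADAMTS17, which is linked to fibrillin microfibrils, had 17.45 counts in MEIS1 deleted cells and 33.25 in wild type, a ratio of 0.524 (0.266 to 0.942). The upper end of its interval lies near 1, and its counts were not whole, as when reads are divided between genes. ADAMTS12 and ADAMTS7, both proteases of cartilage oligomeric matrix protein, had intervals that included 1, from 0.955 to 1.27 for ADAMTS12 and from 0.847 to 1.18 for ADAMTS7. ADAMTS12 stood at 15.56 FPKM in MEIS1 deleted cells and 14.23 FPKM in wild type, and ADAMTS7 at 9.84 FPKM in MEIS1 deleted cells and 9.89 FPKM in wild type. ADAMTS18 had 130 counts in MEIS1 deleted cells and 111 in wild type (ratio 1.16, 0.893 to 1.51). ADAMTS6 and ADAMTS10, relatives that act on fibrillin-rich matrix, had 89 and 53 counts in MEIS1 deleted cells against 108 and 62 in wild type, with ratios of 0.817 (0.609 to 1.09) and 0.848 (0.575 to 1.24). ADAMTS13, the protease of von Willebrand factor, had 24 counts in MEIS1 deleted cells and 34 in wild type, and its interval also included 1.

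Summed over the 19 ADAMTS genes, counts were 3230 in MEIS1 deleted cells and 3688 in wild type, a ratio of 0.867 (0.827 to 0.909). ADAMTS9, ADAMTS1 and ADAMTS12 together held 61.3% of the ADAMTS FPKM in MEIS1 deleted cells and 57.2% in wild type. Among the 6 lower genes the widest gaps in counts were those of ADAMTS1 and ADAMTS3, while the intervals of the abundant ADAMTS9 and ADAMTS12 included 1.

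Among the membrane-anchored MMPs, the abundant MMP14 and MMP15 were lower. MMP14 (NCBI gene 4323, chromosome 14) had 3137 counts in MEIS1 deleted cells and 3830 in wild type, a ratio of 0.811 (0.773 to 0.850), and MMP15 (MT2-MMP), a close relative, had 966 counts in MEIS1 deleted cells and 1234 in wild type, a ratio of 0.775 (0.711 to 0.843). MMP16 (MT3-MMP) had 111 counts in MEIS1 deleted cells and 132 in wild type, with an interval that included 1 (ratio 0.833, 0.641 to 1.08). MMP25, which is held by a lipid anchor, had 6 counts in MEIS1 deleted cells and 19 in wild type (ratio 0.346, 0.102 to 0.814). MMP23B had 3.56 counts in MEIS1 deleted cells and 18 in wild type (ratio 0.260, 0.0541 to 0.668), but its count in MEIS1 deleted cells was not whole and its exons overlap those of CDK11B. MMP17 and MMP24, further membrane-type enzymes, had 15 and 34 counts in MEIS1 deleted cells against 13 and 38 in wild type, with intervals that included 1. Of 7 membrane-anchored genes 4 were lower and 0 higher, beside 14.7% and 15.4% over all genes compared. Of the lower ones, MMP23B and MMP25 reached 10 counts only in wild type, where they were high. The summed level of the 7 genes was 213.42 FPKM in MEIS1 deleted cells and 269.70 FPKM in wild type.

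The gelatinases moved apart. MMP2 had 3238 counts in MEIS1 deleted cells and 2960 in wild type, a small difference with a ratio of 1.08 (1.03 to 1.14). MMP9 (NCBI gene 4318, chromosome 20, gelatinase B), a rare transcript here, had 8 counts in MEIS1 deleted cells and 37 in wild type, at 0.63 FPKM in MEIS1 deleted cells and 2.98 FPKM in wild type, a ratio of 0.234 (0.0861 to 0.467). MMP14 stood below MMP2 in MEIS1 deleted cells, at 0.966 times its FPKM, and above it in wild type, at 1.29 times.

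Apart from MMP2, the higher MMPs were rare transcripts. MMP1, the interstitial collagenase, had 34 counts in MEIS1 deleted cells and 10 in wild type, at 3.10 FPKM in MEIS1 deleted cells and 0.93 FPKM in wild type, a ratio of 3.15 (1.63 to 7.64). MMP1 lies in a run of 9 neighbouring MMP genes on chromosome 11, of which only MMP1 reached 10 counts. The others were MMP7, MMP20, MMP27, MMP8, MMP10, MMP3, MMP12 and MMP13, and the highest count among them was 7, for MMP10 in MEIS1 deleted cells. MMP28 (epilysin) had 27 counts in MEIS1 deleted cells and 7 in wild type, a ratio of 3.46 (1.62 to 10.4). The intervals of the further secreted members included 1. MMP19 had 62.46 counts in MEIS1 deleted cells and 56.11 in wild type (ratio 1.09, 0.751 to 1.602), and MMP11 (stromelysin 3) had 21 counts in MEIS1 deleted cells and 26 in wild type.

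All 3 compared TIMP genes were higher. TIMP3 (NCBI gene 7078, chromosome 22), which binds to the matrix and also inhibits ADAM17 and the aggrecanases ADAMTS4 and ADAMTS5, had 707 counts in MEIS1 deleted cells and 379 in wild type, a ratio of 1.84 (1.63 to 2.10). TIMP2 (NCBI gene 7077, chromosome 17), which inhibits MMPs and also bridges MMP14 and the MMP2 precursor, had 619 counts in MEIS1 deleted cells and 457 in wild type, a ratio of 1.34 (1.19 to 1.52). TIMP1 had 450 counts in MEIS1 deleted cells and 367 in wild type, a ratio of 1.21 (1.05 to 1.40). TIMP4 had 2 counts in MEIS1 deleted cells and 3 in wild type and was not compared. Summed TIMP counts were 1778 in MEIS1 deleted cells and 1206 in wild type, a ratio of 1.46 (1.36 to 1.57). The summed TIMP level was 0.376 of the summed MMP level per length in MEIS1 deleted cells and 0.261 in wild type, and TIMP2 stood at 0.191 times the FPKM of MMP14 in MEIS1 deleted cells and 0.116 times in wild type. TIMP1, TIMP3 and TIMP4 lie within the synapsin genes SYN1, SYN3 and SYN2 on the opposite strand. SYN3 had 20 counts in MEIS1 deleted cells and 32 in wild type, and SYN1 19 in MEIS1 deleted cells and 29 in wild type, few beside the counts of TIMP3 and TIMP1.

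Among ADAM genes, 5 members with an active protease were higher, and ADAM19, an abundant one, was lower. ADAM9 (NCBI gene 8754, chromosome 8), a widely expressed sheddase, had 925 counts in MEIS1 deleted cells and 543 in wild type, a ratio of 1.68 (1.51 to 1.88). ADAM10 had 1470 counts in MEIS1 deleted cells and 1330 in wild type, and its interval lay just above 1 (ratio 1.09, 1.01 to 1.18). ADAM17, the enzyme that releases tumour necrosis factor, had 408.82 counts in MEIS1 deleted cells and 394.02 in wild type, with an interval that included 1 (ratio 1.03, 0.892 to 1.18). ADAM19 (NCBI gene 8728, chromosome 5, meltrin beta), which in mice is needed for heart development, had 2101 counts in MEIS1 deleted cells and 2578 in wild type, a ratio of 0.807 (0.761 to 0.855). ADAM10 was the most abundant ADAM transcript per length in MEIS1 deleted cells, with 31.7% of the ADAM FPKM, whereas in wild type ADAM19 was, with 36.4%.

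ADAM12, ADAM15 and ADAM33, all below 10 FPKM, were higher. ADAM15 (metargidin), which binds integrins, had 136 counts in MEIS1 deleted cells and 72 in wild type, a ratio of 1.86 (1.39 to 2.52). ADAM33 had 151.85 counts in MEIS1 deleted cells and 87.62 in wild type (ratio 1.70, 1.31 to 2.25). ADAM12 (meltrin alpha), a sheddase of the growth factor HB-EGF, had 40 counts in MEIS1 deleted cells and 13 in wild type (ratio 2.90, 1.596 to 6.21). ADAM8 and ADAM28 had at most 12 counts and intervals that included 1. Of the ADAM proteins without an active protease, ADAM22 and ADAM23, binding partners of the secreted protein LGI1 in the nervous system, were the 2 that could be compared. ADAM22 had 97 counts in MEIS1 deleted cells and 101 in wild type (ratio 0.951, 0.712 to 1.27), and ADAM23 had 64 counts in MEIS1 deleted cells and 88 in wild type, with an upper limit just above 1 (ratio 0.723, 0.513 to 1.005). ADAM21, a gene known from testis, had 1 count in MEIS1 deleted cells and 13 in wild type, a ratio of 0.141 (0.00179 to 0.507), and its neighbour ADAM20 had 1 count in MEIS1 deleted cells and 2 in wild type.

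Listed gene lengths, which are averages over a gene's transcripts, differed by over 1% between the libraries for 7 members, so counts and FPKM can part for them. ADAM22 was listed at 5614.49 bases in MEIS1 deleted cells and 6462.42 in wild type, and its FPKM was 3.24 in MEIS1 deleted cells against 2.98 in wild type while its counts had a ratio below 1. ADAM15 was listed at 2915.52 bases in MEIS1 deleted cells and 2770.18 in wild type. The others were ADAM28, ADAMTS2, ADAMTS13, MMP19 and MMP28. Counts that were not whole were found for 8 compared members: ADAM17, ADAM33, ADAMTS2, ADAMTS4, ADAMTS7, ADAMTS17, MMP19 and MMP23B. Whether reads kept their strand was not stated, and exons of ADAM15, ADAM17, ADAM19, MMP11, MMP23B, MMP24 and TIMP2 overlap those of another protein-coding gene in GENCODE 29. For ADAM19 this gene was CYFIP2, with 438 counts in MEIS1 deleted cells and 425 in wild type.

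Genes that act with these proteases were taken as 8 lists. The counts of all 8 lists stand beside 15.4% higher and 14.7% lower over all genes compared. Non-catalytic relatives of ADAMTS proteins, which lack the protease domain, had 1 higher and 0 lower of 6 compared, with a median log2 ratio of 0.31. ADAMTSL2, linked to fibrillin and TGF-beta storage, had 180.46 counts in MEIS1 deleted cells and 119.92 in wild type (ratio 1.48, 1.17 to 1.89), and THSD4 had 179 counts in MEIS1 deleted cells and 146 in wild type (ratio 1.21, 0.970 to 1.52). Among other secreted or surface metalloproteases, 3 of 5 were higher and 0 lower. PAPPA, the pappalysin that cuts IGF-binding proteins, had 686 counts in MEIS1 deleted cells and 221 in wild type (ratio 3.06, 2.64 to 3.59), BMP1, the procollagen C-proteinase, had a ratio of 1.44 (1.15 to 1.81), and ECE1, which activates endothelin, had a ratio of 1.29 (1.20 to 1.39).

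Enzymes that activate protease precursors had 2 higher and 1 lower of 7 compared (median log2 ratio 0.09). PCSK5, a proprotein convertase, had 135.81 counts in MEIS1 deleted cells and 55 in wild type (ratio 2.42, 1.78 to 3.41). Tissue plasminogen activator, encoded by PLAT, had 506 counts in MEIS1 deleted cells and 262 in wild type (ratio 1.91, 1.64 to 2.23), and urokinase, encoded by PLAU, had 134 counts in MEIS1 deleted cells and 183 in wild type (ratio 0.726, 0.576 to 0.911). FURIN, the convertase that activates MMP14 and many ADAM precursors, was named after its values were seen and was at 49.63 FPKM in MEIS1 deleted cells and 50.62 FPKM in wild type (ratio 0.988, 0.908 to 1.08). Partners that carry ADAM10 and ADAM17 to the surface had 1 higher and 1 lower of 8 compared (median log2 ratio -0.19). TSPAN5, a tetraspanin partner of ADAM10, had 501 counts in MEIS1 deleted cells and 249 in wild type (ratio 1.99, 1.71 to 2.33). TSPAN14, another, was the lower one and was named after its values were seen (ratio 0.884, 0.809 to 0.965). The ADAM17 partners RHBDF1 and RHBDF2 had ratios of 0.834 (0.693 to 1.002) and 0.751 (0.529 to 1.05), with intervals that included 1.

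Other inhibitors and clearance genes had 2 higher and 2 lower of 8 compared (median log2 ratio 0.0068). TFPI2, a matrix-bound serine protease inhibitor, had 209 counts in MEIS1 deleted cells and 95 in wild type (ratio 2.17, 1.70 to 2.81). SERPINE2, a secreted inhibitor of thrombin and other serine proteases, had 3661 counts in MEIS1 deleted cells and 6025 in wild type, a ratio of 0.601 (0.577 to 0.627). RECK, a membrane-anchored inhibitor of MMPs that was named after its values were seen, had 256 counts in MEIS1 deleted cells and 179 in wild type (ratio 1.41, 1.17 to 1.72).

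Substrates moved in several ways. Versican (VCAN), the main hyalectan here, had 6124 counts in MEIS1 deleted cells and 5888 in wild type (ratio 1.03, 0.993 to 1.07), while the link protein gene HAPLN1 had 16901 counts in MEIS1 deleted cells and 9326 in wild type (ratio 1.79, 1.75 to 1.84). This list had 1 higher and 1 lower of 5 compared, the lower one being the link protein gene HAPLN4, named after its values were seen (10 counts in MEIS1 deleted cells and 22 in wild type). Procollagen genes and the VEGFC pair had 5 higher and 1 lower of 8 compared (median log2 ratio 0.21). VEGFC, among the higher ones, reached 10 counts only in MEIS1 deleted cells, where it was high. COL3A1, whose procollagen is cut by ADAMTS2 and its relatives, had 2498 counts in MEIS1 deleted cells and 346 in wild type (ratio 7.13, 6.38 to 8.02), COL1A1 a ratio of 1.73 (1.65 to 1.80) and COL5A2 a ratio of 0.603 (0.577 to 0.629). The last list holds ligands and receptors that ADAM proteases are known to shed. Of 20 compared, 6 were higher and 4 lower (median log2 ratio 0.03), beside 15.4% and 14.7% over all genes compared. The lower ones were NOTCH3, CDH2, APP and L1CAM, and NOTCH1, JAG1 and KITLG were among the higher ones, named after their values were seen. CDH5 (VE-cadherin) had a ratio of 3.87 (3.14 to 4.89), the hyaluronan receptor CD44 had 839 counts in MEIS1 deleted cells and 407 in wild type (ratio 2.04, 1.81 to 2.30), and ALCAM, an adhesion molecule, had a ratio of 1.70 (1.57 to 1.83).

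**Figure D4:**
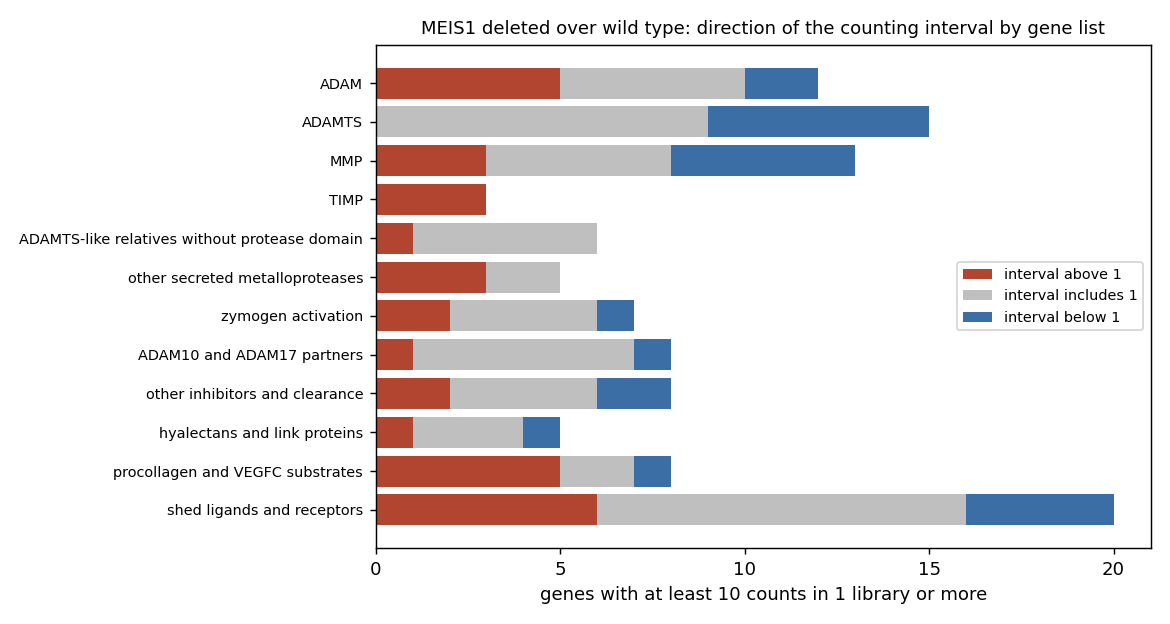
Number of genes with a 95% counting interval above 1, including 1 or below 1, MEIS1 deleted over wild type, for the 4 families and 8 lists of genes that act with them. The ADAMTS bar has no part above 1, beside 15.4% above 1 over all genes compared. The bars of the TIMP genes, the ADAMTS-like relatives and the other secreted metalloproteases, of 3, 6 and 5 genes, have no part below 1, beside 14.7% below 1 over all genes compared.

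Markers of several cell types also differed between the libraries. Over all genes compared, 14.7% were lower and 15.4% higher. Of 8 compared primitive streak markers all 8 were lower. MESP2 (0 counts in MEIS1 deleted cells, 10 in wild type) and TBX6 (8 and 28) reached 10 counts only in wild type. Both could therefore be compared only through the library in which they were high. The 10 listed primitive streak markers had a summed level of 45.69 FPKM in MEIS1 deleted cells and 162.72 FPKM in wild type. Endothelial markers had 7 higher and 1 lower of 8 compared, and 142.89 FPKM in MEIS1 deleted cells against 56.35 FPKM in wild type in sum. Fibroblast and smooth muscle markers had 6 higher and 2 lower of 9, with 775.29 FPKM in MEIS1 deleted cells and 626.49 FPKM in wild type. The higher ones were COL1A1, COL1A2, COL3A1, COL6A3, LUM and ACTA2, and the lower ones TAGLN and POSTN. DCN, also in this marker list, was listed in neither library. Pluripotency markers had 7 lower and 0 higher of 9, with 674.16 FPKM in MEIS1 deleted cells and 892.26 FPKM in wild type. In the remaining lists, definitive endoderm had 1 higher and 2 lower of 7, neural ectoderm 0 higher and 1 lower of 3, and amnion and trophoblast 3 higher and 3 lower of 7. Their summed levels were 113.87, 123.41 and 434.56 FPKM in MEIS1 deleted cells and 113.81, 140.23 and 374.02 FPKM in wild type. The part of these cell types in the protease and TIMP differences was not tested.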

How the data were processed

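The libraries, 1 of MEIS1 deleted and 1 of wild-type H1 cells at day 3, were prepared with a TruSeq kit (input 2 µg of TRIzol RNA), per the labels' protocols. The authors deposited expected counts (estimated counts, not scaled) and FPKM values (scaled by the authors for gene length and depth) with a gene length, per the file headers. The submitters' processing notes name BWA, Bowtie, RSEM and hg19, without versions or roles. Gene numbers were matched to symbols through RefSeq (GRCh38.p14), 18413 of 18518, and absent rows were taken as 0.

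Expected counts were rounded and scaled by TMM in edgeR 4.0.16 (R 4.3.3). Effective library sizes of MEIS1 deleted and wild type differed by a factor of 1.01. Ratios used a pseudocount of 1, and intervals are exact Clopper-Pearson 95% intervals conditional on the summed count, computed with scipy 1.17.1. PCR copies are not independent molecules, so intervals cover counting error only. A gene was compared if either library gave it 10 counts or more. Named by rule were members with at least 50 counts in either library or an interval that excluded 1, and from each pathway list up to 3 genes with at least 50 counts and the largest absolute log2 ratios; other members were accounted for. The values of 1 listed gene are not reported here. Role groups within families followed textbook roles. Counts were called whole within 0.005. The computation was tested on simulated counts. Members, lists and rules were chosen with earlier results of these data known. Alternatives were other scalings (DESeq2 1.42.0 among them), pseudocounts, minimum counts and FPKM.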

Additional observations from a re-analysis of the deposited data

How the results depend on the processing

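Alternatives were 3 other scalings, pseudocounts of 0.5 and 5, minimum counts of 1 and 50, unrounded counts, FPKM, and leaving out members with counts that were not whole. The scalings moved all genes alike, by -0.0107, 0.0150 and -0.0009 on the log2 scale, which is too little to turn the sign of a family median, so they say nothing of its stability. Over all alternatives ADAMTS medians ran between -0.50 and -0.18 on the log2 scale, MMP medians between -0.27 and -0.09, ADAM medians between 0.03 and 0.12 and TIMP medians between 0.35 and 0.44. With a minimum of 50 counts, where fewer genes were compared, 8 members were lower, 2 at least 2-fold lower and 0 at least 2-fold higher, so the 3 members at least 2-fold higher (ADAM12, MMP1 and MMP28) all rest on fewer than 50 counts. Scaling by total count made ADAM23 lower (14 members lower), and DESeq2 size factors made ADAMTS9 higher (12 members higher). The alternatives for single members reuse the data from which the intervals were built, so staying within an interval says little of stability. Of 296 values for single members, 292 stayed within their counting interval. The other 4 were FPKM log2 ratios, where adding 1 shrinks the ratios of rare transcripts: 0.66 for ADAM12, -0.86 for ADAM21, -1.04 for ADAMTS5 and -0.91 for ADAMTS15. Depth limits the rare members most, since a gene at 10 counts has an interval several-fold wide. No paired analysis was possible because each genotype had 1 library, and for the same reason no library could be left out.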
